A study of Mus musculus with 12 samples.

Results

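The genes described here are 40 genes that carry glucose into the cell, break it down to pyruvate, move lactate out, or build and break down glycogen, followed in type 1 conventional dendritic cells (cDC1) of mouse spleen and skin-draining lymph node. They were chosen by gene symbol and function, with earlier results of these data known. Of the 40, 38 were measured by a probe set with a single gene symbol, among 19938 genes tested. Gpi1 and Eno1 were not analysed here. The 38 comprised 24 genes of glucose uptake, glycolysis and lactate or pyruvate handling, 13 genes of glycogen metabolism, and Hif1a, a transcription factor of the hypoxia response. Of the 13 glycogen genes, 3 act in build-up (Gys1, Gbe1 and Ugp2) and 7 act in breakdown. The other 3 (Pgm1, Pgm2 and Pgm2l1) are of the phosphoglucomutase family and were listed as shared by both directions.

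RNA of sorted cells was hybridised to 12 Affymetrix Mouse Gene 1.0 ST arrays, 3 for each of 4 groups. Lymph node arrays labelled Xcr1Cre+ held migratory cDC1 from skin-draining nodes of Xcr1 Cre/+ mice, and lymph node arrays labelled Xcr1++ held the same cells from Xcr1+/+ mice. Spleen arrays labelled Xcr1Cre+ and spleen arrays labelled Xcr1++ held splenic cDC1 of those genotypes. All mice were naive C57BL/6 animals homozygous for a floxed Cd40 gene (CD40 fl/fl), so the Xcr1++ groups also carried the floxed alleles, and the Cre was driven from Xcr1, a gene of cDC1. The sort gate took XCR1+ cells without B220 or Sirpa that had much surface MHC class II, with intermediate CD11c in lymph node and high CD11c in spleen. The labels give no age and do not say whether arrays came from separate mice or pools, so p-values measure the spread between these arrays, which may be technical.

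The deposited values were intensities between 8.23 and 20398, with array medians of 66.1 to 74.4, and the number of arrays limits the precision. An intensity of 56.0, below which 95% of 1015 olfactory receptor genes had their mean, was taken as background. Cd40, the targeted gene, did not follow the labels: the ratio of the Xcr1Cre+ array to the Xcr1++ array of the same replicate number was 0.668 in lymph node and 0.638 in spleen for number 1, 0.5 and 0.407 for number 2, and 2.178 and 1.843 for number 3. Where the Cd40 probes lie relative to the deleted part is unknown here, and the genotype groups are therefore called by their labels throughout. Of the cDC1 markers, 12 of 12 were measured and none had a group mean at or under background. Their summed intensity was 12413 to 15935 over the lymph node arrays, against 34486 to 47955 over the spleen arrays. Under each label 8 of the 12 were called lower in lymph node: Xcr1, Clec9a, Cadm1, Tlr3, Itgae, Cd8a, Naaa and Wdfy4. The median log2 difference over the 12 was -2.75 with the Xcr1Cre+ label and -2.76 with the Xcr1++ label. Batf3, Irf8, Flt3 and Zbtb46 were not called lower. The 7 measured markers of migratory maturation had sums of 27658 to 42393 in lymph node, against 5294 to 7990 in spleen. Under each label 6 of the 7 were called higher in lymph node. The exception was Cd83, at 1305 in lymph node and 1363 in spleen with the Xcr1Cre+ label, and 1301 and 1601 with the Xcr1++ label.

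Markers of other cells also differed between the tissues. The 7 measured macrophage and monocyte markers had sums of 595 to 707 in lymph node, against 3470 to 5085 in spleen. Of these markers 3 were at or under background in every group, and Cd14, Lyz2 and Cd68 were called lower in lymph node under both labels. The 5 measured T cell markers had sums of 572 to 1400 in lymph node, against 584 to 709 in spleen, with Cd3d, Cd3e and Cd3g called higher and Cd5 called lower under both labels. The 6 cDC2 markers had sums of 321 to 356 in lymph node, against 452 to 681 in spleen, and the 6 stromal and endothelial markers 422 to 529, against 749 to 911. The 5 measured plasmacytoid dendritic cell markers had sums of 2648 to 3571 in lymph node, against 2070 to 2908 in spleen. Of these 5, 1 was called lower in lymph node under each label, and the lowest log2 differences were -2.60 and -2.67. With the Xcr1Cre+ label 1 was called higher, and with the Xcr1++ label 2 were. B cell markers (386 to 566 in lymph node, 382 to 493 in spleen), NK cell markers (308 to 455, 287 to 412), neutrophil markers (282 to 388, 271 to 293), Langerhans cell and keratinocyte markers (418 to 522, 462 to 755) and erythroid markers (68 to 94, 75 to 88) had sums that overlapped between the tissues. Single markers in these lists still differed under both labels: among B cell markers Blnk was called higher (2.58 and 2.69 on the log2 scale) and Ms4a1 lower (-2.53 and -2.20), and among Langerhans cell and keratinocyte markers Epcam and Krt14 were called higher and Cd207 lower. The part of these cells in the tissue differences below was not tested. In bulk RNA of sorted cells, fewer expressing cells and less RNA per cell cannot be told apart.

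Glycolysis splits glucose into pyruvate through steps catalysed by hexokinases, phosphofructokinases, aldolases, enolases and pyruvate kinases, and lactate dehydrogenase can turn the pyruvate into lactate, which leaves the cell through monocarboxylate transporters. Most of these steps have several isoenzymes, encoded by separate genes with tissue-specific use. Glycogen is a stored glucose polymer, built by glycogen synthase and branching enzyme and taken apart by glycogen phosphorylase in the cytosol or by acid alpha-glucosidase in the lysosome. In dendritic cells, a rapid rise in glycolysis is known to accompany activation through Toll-like receptors, and intracellular glycogen has been described as one of its carbon sources.

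Glycolytic promoters are known targets of HIF1, which binds a core of ACGTG or GCGTG on either strand. Promoter windows were taken from RefSeq (build GRCm38.p6), each reaching from 250 bases before a gene's start to 50 bases after it, and 37 of the 38 measured members had at least 1. The core was found in 32 of these 37 members (86.5%), against 55.3% of 15614 tested genes with a promoter. Per window, the share was 77.6% of 49 member promoters, against 51.7% of 19177 promoters of tested genes and 43.8% of all 32851 promoters. Among the members called higher in lymph node under both labels, 6 of 7 held a core (all but Eno2), and among those called lower under both labels, 11 of 11 with a promoter did. The median number of CpG per window was 22 in the members that rose, 23 in those that fell and 15 over tested genes. The NF-kappaB motif, searched by name on both strands, was in 4 of 37 members (10.8%) and in 11.0% of the tested genes with a promoter. Windows of 3 members that rose and 3 that fell are printed, since members of both directions carried the core. Capitals mark core matches, and CACGTG holds 1 core on each strand.
Pygl promoter, chr12:70227634-70227933, minus strand: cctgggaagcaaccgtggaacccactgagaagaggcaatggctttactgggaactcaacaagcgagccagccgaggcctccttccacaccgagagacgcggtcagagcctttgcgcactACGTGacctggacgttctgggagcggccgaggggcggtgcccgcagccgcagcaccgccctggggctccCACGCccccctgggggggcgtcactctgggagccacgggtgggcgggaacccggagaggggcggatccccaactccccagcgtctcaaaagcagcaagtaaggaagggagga
Pfkfb3 promoter, chr2:11502041-11502340, minus strand: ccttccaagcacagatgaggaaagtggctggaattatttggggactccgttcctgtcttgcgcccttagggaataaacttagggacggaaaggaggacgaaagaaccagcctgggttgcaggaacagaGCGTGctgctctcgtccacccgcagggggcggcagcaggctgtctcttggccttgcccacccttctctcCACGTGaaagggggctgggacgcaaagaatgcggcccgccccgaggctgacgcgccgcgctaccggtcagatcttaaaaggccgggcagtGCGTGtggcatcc
Slc2a6 promoter, chr2:27027949-27028248, minus strand: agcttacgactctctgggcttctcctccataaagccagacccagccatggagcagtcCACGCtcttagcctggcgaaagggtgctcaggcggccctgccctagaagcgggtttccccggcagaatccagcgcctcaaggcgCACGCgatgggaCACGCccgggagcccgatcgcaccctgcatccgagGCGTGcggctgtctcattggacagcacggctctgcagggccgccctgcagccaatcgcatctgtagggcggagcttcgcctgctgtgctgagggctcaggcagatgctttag
Ldha promoter, chr7:46845554-46845853, plus strand: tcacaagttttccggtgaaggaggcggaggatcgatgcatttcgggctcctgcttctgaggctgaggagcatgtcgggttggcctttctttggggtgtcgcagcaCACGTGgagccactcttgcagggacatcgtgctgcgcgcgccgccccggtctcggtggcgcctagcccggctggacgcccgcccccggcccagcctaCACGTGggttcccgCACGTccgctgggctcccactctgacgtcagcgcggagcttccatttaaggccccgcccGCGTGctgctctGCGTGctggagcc
Pfkp promoter, chr13:6648722-6649021, minus strand: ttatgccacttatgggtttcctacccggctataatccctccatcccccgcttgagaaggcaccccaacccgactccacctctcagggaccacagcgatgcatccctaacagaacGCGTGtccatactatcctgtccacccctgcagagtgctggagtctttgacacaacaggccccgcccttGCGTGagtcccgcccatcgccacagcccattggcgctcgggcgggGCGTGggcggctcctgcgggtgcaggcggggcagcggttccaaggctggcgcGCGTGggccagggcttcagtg
Pgam1 promoter, chr19:41911621-41911920, plus strand: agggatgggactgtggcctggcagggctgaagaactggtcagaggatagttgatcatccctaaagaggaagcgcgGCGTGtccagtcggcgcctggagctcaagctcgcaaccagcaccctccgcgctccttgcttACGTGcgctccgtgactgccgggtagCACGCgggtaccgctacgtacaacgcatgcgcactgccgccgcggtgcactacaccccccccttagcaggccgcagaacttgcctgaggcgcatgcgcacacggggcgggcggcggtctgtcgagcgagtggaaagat
These windows held 2 cores for Pygl, 4 for Pfkfb3, 4 for Slc2a6, 7 for Ldha, 4 for Pfkp and 3 for Pgam1. Pfkfb3 and Ldha have a second RefSeq start, not printed, whose windows held 1 and 2 cores. A match describes letters only.

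The first comparison set migratory cDC1 of lymph node against cDC1 of spleen, once within each genotype label. The members did not move together: a few isoenzymes and the phosphorylase Pygl were far higher in lymph node, while Ldha, Pgam1, Pfkp, Hk2 and Hk3 were far lower. With the Xcr1Cre+ label, 8 of 38 members rose (21.1%) and 15 fell (39.5%), against 13.1% and 15.2% of all tested genes (limma, adjusted p under 0.05). With the Xcr1++ label, 7 of 38 rose (18.4%) and 13 fell (34.2%), against 12.9% and 13.2% of all genes. The members were brighter than tested genes at large: 33 of 38 had all 4 group means above background, against 59.9% of tested genes with a mean above it. In a fit of the 9969 genes above the median level alone, 2039 rose and 2881 fell with the Xcr1Cre+ label. With the Xcr1++ label, 2292 of these rose and 2506 fell. As a share of these brighter genes, the rises came close to the member share with the Xcr1Cre+ label and exceeded it with the Xcr1++ label. The falls stayed below the member share under both labels. The member shares came from the fit of all genes, so this comparison is across different fits. The part of brightness in the member shares was not tested. The median log2 difference over members was -0.21 with the Xcr1Cre+ label and -0.25 with the Xcr1++ label, where the medians over all genes were 0.07 and 0.03. Both comparisons called 7 members higher (Slc2a6, Pfkfb3, Aldoa, Eno2, Pdk3, Pygl and Gaa) and 12 lower (Slc2a1, Slc2a3, Hk2, Hk3, Aldoc, Pfkp, Pgk1, Pgam1, Ldha, Slc16a1, Pgm2l1 and Phka2), with the same sign in 36 of 38. The shares of all genes called the same way in both comparisons, or with the same sign, were not counted. These counts therefore say nothing particular about the members. The log2 differences of these comparisons share no array, but the spread behind each call was estimated from the arrays of all groups. Arrays of the same replicate number also deviated together across the groups. The agreement between the labels is therefore not an independent replication.

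The fit above has no block. In an alternative fit, blocking on the replicate number as a pairing of the arrays raised the calls of members and of all genes. With the block, 10 members rose and 18 fell with the Xcr1Cre+ label, where 20.5% of all genes rose and 20.4% fell. For Xcr1++ arrays, 10 members rose and 14 fell, where 18.2% of all genes rose and 17.8% fell. Without the 4 arrays numbered 1, which stand apart in every group, 10 members rose and 17 fell with the Xcr1Cre+ label (18.7% and 19.8% of all genes), and 11 rose and 16 fell with the Xcr1++ label (17.7% and 16.9% of all genes). Without the 4 arrays numbered 3, which include those whose Cd40 went against the label, 4 members rose and 10 fell with the Xcr1Cre+ label (6.69% and 8.83% of all genes), and 5 rose and 7 fell with the Xcr1++ label (7.04% and 7.33% of all genes). The calls not made without arrays numbered 3 were those of Pgk1, Slc2a1, Slc2a3, Aldoa and Pdk3 under both labels, of Gaa, Ldhb, Pdk1 and Pkm with the Xcr1Cre+ label, and of Aldoc, Hif1a and Phka2 with the Xcr1++ label. Slc2a6, Pfkfb3, Eno2, Pygl, Hk2, Hk3, Pfkp, Pgam1, Ldha, Slc16a1 and Pgm2l1 were called under both labels in all 3 of these fits.

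In the main fit, the glycolytic and lactate genes and the glycogen genes differed in how many passed the test. Of the 24 glycolysis and lactate members, 6 rose (25%) and 13 fell (54.2%) with the Xcr1Cre+ label, and 5 rose (20.8%) and 10 fell (41.7%) with the Xcr1++ label. Their median log2 differences were -0.58 and -0.29. Of the 13 glycogen members, 2 rose and 2 fell under each label (15.4% each way). These shares were near those of all genes. Of all genes, 13.1% rose and 15.2% fell with the Xcr1Cre+ label, and 12.9% rose and 13.2% fell with the Xcr1++ label. The glycogen medians were -0.04 with the Xcr1Cre+ label and 0.21 with the Xcr1++ label. Single arrays decided the sign or size of these medians: with the Xcr1Cre+ label the glycogen median was -0.08 without spleen array 3, 0.01 without spleen array 2, 0.03 without spleen array 1 and 0.05 without lymph node array 2, and -0.03 and -0.02 without lymph node arrays 1 and 3. With the Xcr1++ label it was 0.13 without spleen array 2. With the replicate block, 4 glycogen members rose and 3 fell with the Xcr1Cre+ label, where 20.5% of all genes rose and 20.4% fell. With the block and the Xcr1++ label, 5 rose and 2 fell, where 18.2% of all genes rose and 17.8% fell. With array weights and the Xcr1++ label, Gys1, Gbe1, Ugp2, Phkb, Phkg2 and Pygm were called as well. The same fit added Hk1, Pdk1, Pfkl, Slc16a3 and Tpi1 of the glycolysis and lactate list. Of all 19938 genes it called 4937 higher and 4083 lower. The difference between the lists was not tested.

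**Figure D1:**
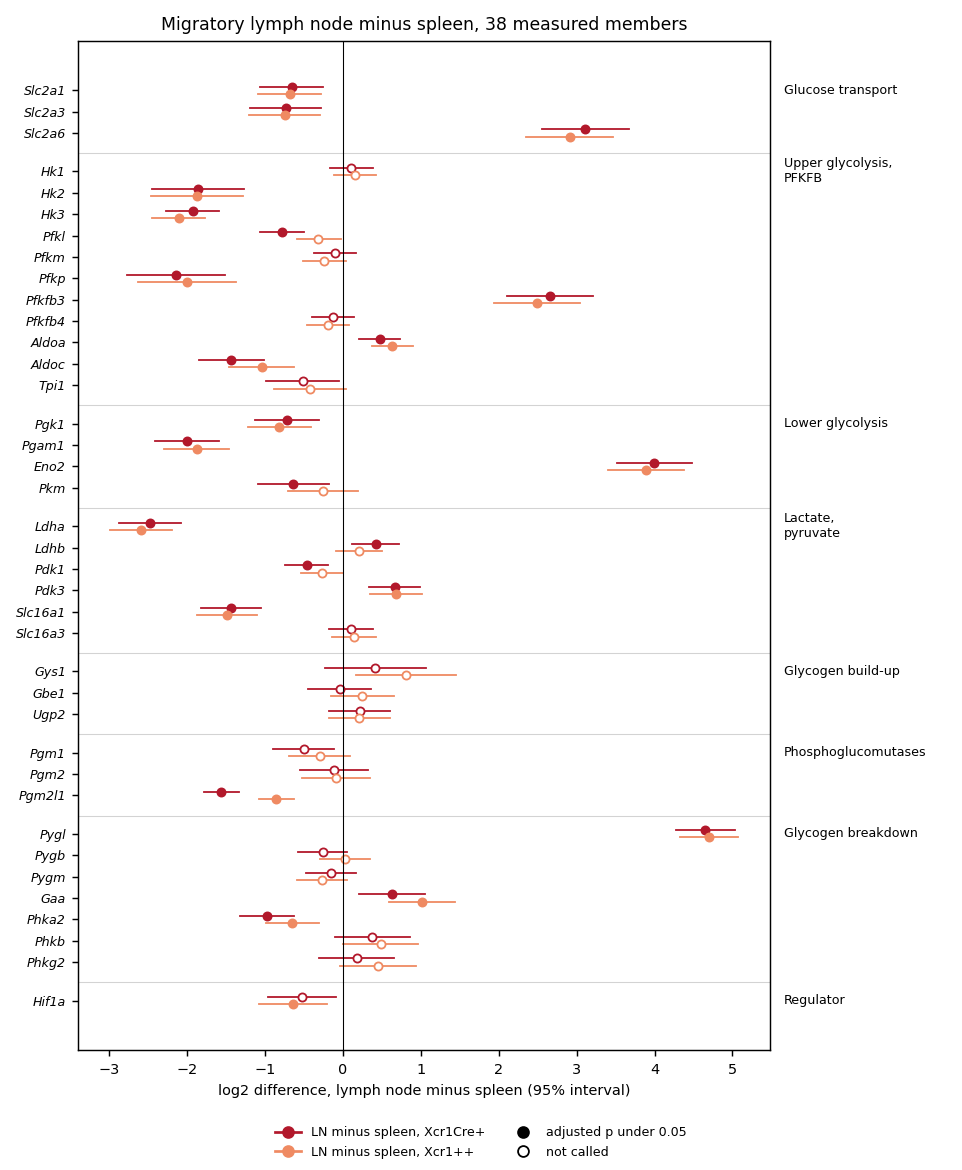
Log2 difference of lymph node minus spleen for the 38 measured members, ordered by role, with 95% intervals; red points are arrays labelled Xcr1Cre+, orange points arrays labelled Xcr1++, and filled points passed an adjusted p under 0.05. Pygl, Eno2, Slc2a6 and Pfkfb3 lie far to the right (from 2.49 to 4.70), Ldha, Pfkp, Pgam1, Hk2 and Hk3 far to the left (from -2.60 to -1.86), and the 3 build-up genes are open points.

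Glucose transport split by transporter. Slc2a6 encodes GLUT6, a hexose transporter of lysosomal membranes, while Slc2a1 and Slc2a3 encode the plasma membrane transporters GLUT1 and GLUT3. Slc2a6 was at 1044, 1872 and 1606 in lymph node cells labelled Xcr1Cre+, against 200.2, 126 and 194 in spleen cells. Slc2a6 in lymph node cells labelled Xcr1++ was at 1103, 1530.3 and 1988, against 217, 204 and 179 in spleen cells of that label. All 6 lymph node arrays lay above all 6 spleen arrays. The Slc2a6 log2 difference was 3.11 (SE 0.26, adjusted p = 6.31e-07) with the Xcr1Cre+ label and 2.91 (SE 0.26, adjusted p = 1.23e-06) with the Xcr1++ label. Slc2a1 averaged (geometric mean, n = 3 per group) 309 in lymph node and 488 in spleen with the Xcr1Cre+ label, and 282 in lymph node and 453 in spleen with the Xcr1++ label. Its log2 differences were -0.66 (SE 0.19, adjusted p = 0.0165) and -0.68 (SE 0.19, adjusted p = 0.0139). Slc2a3 averaged 149 in lymph node and 248 in spleen with the Xcr1Cre+ label, and 141 in lymph node and 236 in spleen with the Xcr1++ label, with log2 differences of -0.74 (SE 0.21, adjusted p = 0.0174) and -0.75 (SE 0.21, adjusted p = 0.017). Neither fall held in every fit: quantile normalization gave adjusted p of 0.078 for Slc2a1 and 0.0753 for Slc2a3 with the Xcr1Cre+ label. Leaving out lymph node array 1 or spleen array 1 of that label gave 0.0548 and 0.0682 for Slc2a1, and leaving out lymph node array 2 or 3 or spleen array 1 or 3 gave 0.0505 to 0.081 for Slc2a3. With the Xcr1++ label, leaving out lymph node array 3 gave 0.0737 for Slc2a1 and 0.0745 for Slc2a3, and leaving out spleen array 1 gave 0.0771 for Slc2a3.

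Hexokinases trap glucose as glucose-6-phosphate, and the isoenzymes Hk2 and Hk3 were both lower in lymph node. Hk2 was at 70.9, 61.0 and 56.3 in lymph node cells labelled Xcr1Cre+, against 162, 281 and 258 in spleen cells. The Xcr1++ arrays had Hk2 at 62.8, 68.4 and 65.8 in lymph node, against 140.1, 307 and 321 in spleen. Hk2 in lymph node was close to background on all 6 arrays, and in both spleen groups the array numbered 1 was the lowest. The Hk2 log2 difference was -1.86 (SE 0.27, adjusted p = 0.000128) with the Xcr1Cre+ label and -1.87 (SE 0.27, adjusted p = 0.000127) with the Xcr1++ label. Hk3 was at 97.7, 82.5 and 70.5 in lymph node cells labelled Xcr1Cre+, against 268, 336 and 347 in spleen cells. For Hk3 with the Xcr1++ label, the lymph node cells gave 87.5, 70.3 and 73.0 and the spleen cells 295, 340.4 and 359. The highest lymph node value of Hk3 was 97.7, and the lowest spleen value was 268. The Hk3 log2 difference was -1.93 (SE 0.16, adjusted p = 5.54e-07) with the Xcr1Cre+ label and -2.11 (SE 0.16, adjusted p = 2.53e-07) with the Xcr1++ label. The Hk1 result depended on the probe set. The brightest one, at 4979 to 6738 over the 12 arrays, did not pass the test (log2 differences 0.11 and 0.15, adjusted p = 0.584 and 0.49), and the 1 transcript record it lists is shared with 17 other probe sets, 16 of them also annotated to the ribosomal protein gene Rpl17. The other Hk1 probe set, which lists curated transcripts, averaged 132 in lymph node and 90.8 in spleen with the Xcr1Cre+ label, and 144 in lymph node and 78.7 in spleen with the Xcr1++ label. By that probe set Hk1 rose by 0.54 (adjusted p = 0.00363) and 0.87 (adjusted p = 8.01e-05) on the log2 scale.

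Phosphofructokinase commits sugar to glycolysis, and PFKFB enzymes set the level of its activator fructose-2,6-bisphosphate. Pfkfb3, whose product favours kinase activity and so raises that activator, was among the largest rises. Pfkfb3 was at 4548, 7410.3 and 7378 in lymph node cells labelled Xcr1Cre+, against 795, 949 and 1325 in spleen cells. Under the Xcr1++ label, Pfkfb3 was at 4868, 8123 and 7747 in lymph node cells, against 957, 1297 and 1388 in spleen cells. The lymph node and spleen values of Pfkfb3 did not overlap, and array 1 was the lowest in all 4 groups. The Pfkfb3 log2 difference was 2.65 (SE 0.26, adjusted p = 2.64e-06) with the Xcr1Cre+ label and 2.49 (SE 0.26, adjusted p = 4.94e-06) with the Xcr1++ label. Pfkp, the platelet-type phosphofructokinase, moved the other way. Pfkp was at 629, 1104 and 931 in lymph node cells labelled Xcr1Cre+, against 2774, 4435 and 4524 in spleen cells. Pfkp in lymph node cells labelled Xcr1++ was at 768, 1161 and 1229, against 2711, 5123 and 5115 in spleen cells of that label. Array 1 was again the lowest of each group, and the groups of the tissues still did not overlap. The Pfkp log2 difference was -2.14 (SE 0.29, adjusted p = 6.87e-05) with the Xcr1Cre+ label and -2.01 (SE 0.29, adjusted p = 0.000125) with the Xcr1++ label.

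The liver-type Pfkl and muscle-type Pfkm were dim. Pfkl was at 84.8, 72.3 and 74.1 in lymph node cells labelled Xcr1Cre+, against 153, 136 and 111 in spleen cells. The Xcr1++ arrays had Pfkl at 84.6, 86.0 and 81.5 in lymph node, against 94.8, 104 and 116 in spleen. All lymph node values of Pfkl were under all spleen values within each label. The Pfkl log2 difference was -0.79 (SE 0.13, adjusted p = 0.000375) with the Xcr1Cre+ label and -0.32 (SE 0.13, adjusted p = 0.104) with the Xcr1++ label. The fall with the Xcr1Cre+ label passed, and with the Xcr1++ label Pfkl was called lower with array weights (-0.30, adjusted p = 0.0106) and without the arrays numbered 1 (-0.39, adjusted p = 0.0279). A test of the difference between the labels gave -0.47 (adjusted p = 1). Pfkm was at 52.9, 57.1 and 62.5 in lymph node cells labelled Xcr1Cre+, against 67.0, 54.1 and 64.3 in spleen cells. For Pfkm with the Xcr1++ label, the lymph node cells gave 62.6, 61.5 and 47.6 and the spleen cells 73.5, 63.8 and 64.5. Pfkm stayed within reach of background in every group, and neither comparison passed, with log2 differences of -0.10 and -0.24. Pfkfb4 had group means at or under background in all 4 groups.

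**Figure D2:**
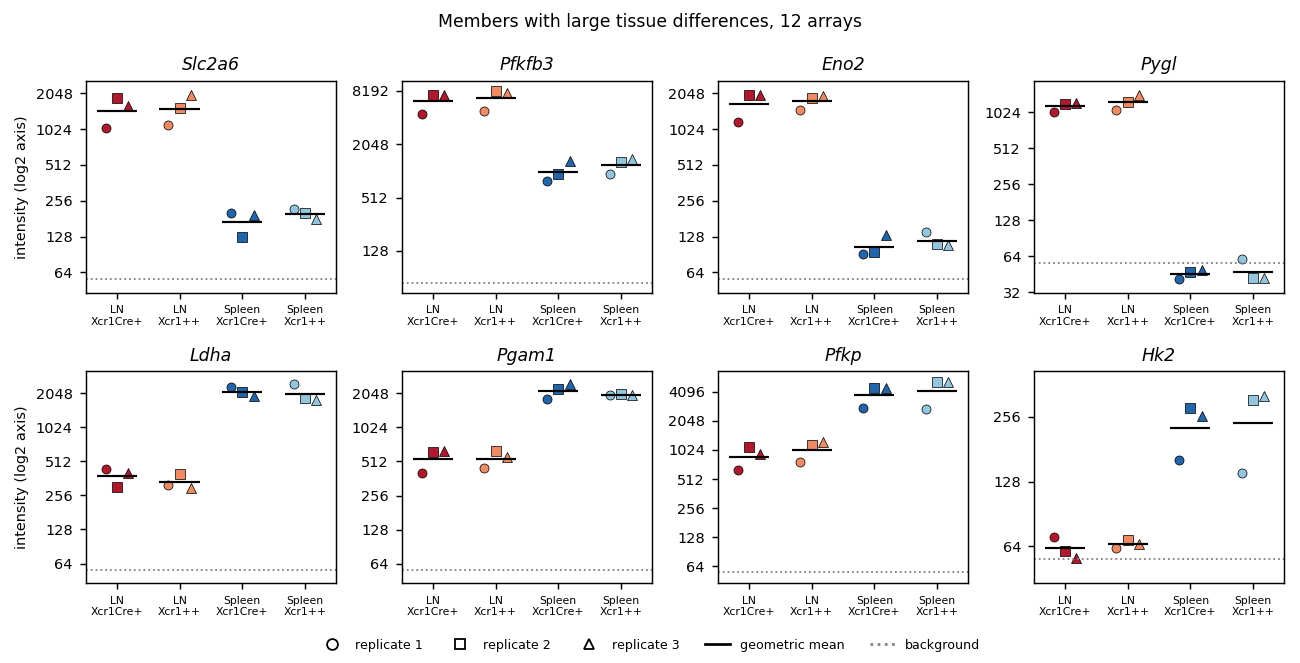
Intensity on a log2 axis of 8 members on all 12 arrays, by group; symbols are array numbers, horizontal bars geometric means of 3 arrays, and the dotted line the background of 56.0. Slc2a6, Pfkfb3, Eno2 and Pygl are higher in both lymph node groups, Ldha, Pgam1, Pfkp and Hk2 higher in both spleen groups, and the spleen arrays of Pygl lie between 41.3 and 61.3.

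Aldolases cleave fructose-1,6-bisphosphate, and the isoenzymes Aldoa and Aldoc moved in opposite directions. Aldoa was at 2433, 2481 and 2642 in lymph node cells labelled Xcr1Cre+, against 1936, 1723 and 1800.0 in spleen cells. Under the Xcr1++ label, Aldoa was at 2609.6, 3052 and 2556 in lymph node cells, against 1763, 1688 and 1833 in spleen cells. Aldoa was bright in every group and each lymph node array was above each spleen array. The Aldoa log2 difference was 0.47 (SE 0.12, adjusted p = 0.0101) with the Xcr1Cre+ label and 0.63 (SE 0.12, adjusted p = 0.0013) with the Xcr1++ label. Leaving out spleen array 2 of the Xcr1Cre+ label gave 0.43 (adjusted p = 0.0505). Aldoc was at 68.1, 74.3 and 71.7 in lymph node cells labelled Xcr1Cre+, against 146, 255 and 193 in spleen cells. Aldoc in lymph node cells labelled Xcr1++ was at 102, 77.4 and 65.5, against 151, 171 and 177 in spleen cells of that label. Lymph node and spleen values of Aldoc did not overlap. The Aldoc log2 difference was -1.44 (SE 0.19, adjusted p = 5.76e-05) with the Xcr1Cre+ label and -1.05 (SE 0.19, adjusted p = 0.000868) with the Xcr1++ label. Triose phosphate isomerase Tpi1 averaged 872 in lymph node and 1250.0 in spleen with the Xcr1Cre+ label, and 937 in lymph node and 1256 in spleen with the Xcr1++ label. Its differences of -0.52 (SE 0.22, adjusted p = 0.0917) and -0.42 (SE 0.22, adjusted p = 0.197) did not pass. Tpi1 was called lower under both labels with the replicate block (adjusted p = 0.000478 and 0.00249), with array weights (0.0024 and 0.0111) and without the arrays numbered 1 (0.000519 and 0.00344), and with the Xcr1Cre+ label without spleen array 1 of that label (-0.73, adjusted p = 0.0208).

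In lower glycolysis, the phosphoglycerate mutase Pgam1 and the phosphoglycerate kinase Pgk1 fell while the enolase Eno2 rose. Eno2 was at 1178, 1998 and 1984 in lymph node cells labelled Xcr1Cre+, against 90.9, 94.5 and 133 in spleen cells. The Xcr1++ arrays had Eno2 at 1472, 1878 and 1967 in lymph node, against 139, 109.8 and 109 in spleen. Eno2, known as the neuronal enolase, was at 1178 or more on each lymph node array and at 139 or less on each spleen array. The Eno2 log2 difference was 3.999 (SE 0.23, adjusted p = 1.85e-08) with the Xcr1Cre+ label and 3.89 (SE 0.23, adjusted p = 2.51e-08) with the Xcr1++ label. Pgam1 was at 407, 616 and 628 in lymph node cells labelled Xcr1Cre+, against 1844, 2222 and 2469 in spleen cells. For Pgam1 with the Xcr1++ label, the lymph node cells gave 450.4, 636 and 556 and the spleen cells 1985, 2014 and 1984. Every Pgam1 value in lymph node was under every value in spleen. The Pgam1 log2 difference was -2.00 (SE 0.19, adjusted p = 2.47e-06) with the Xcr1Cre+ label and -1.88 (SE 0.19, adjusted p = 4.65e-06) with the Xcr1++ label. Pgk1 averaged 805 in lymph node and 1324 in spleen with the Xcr1Cre+ label, and 809 in lymph node and 1426 in spleen with the Xcr1++ label, with differences of -0.72 (SE 0.19, adjusted p = 0.0102) and -0.82 (SE 0.19, adjusted p = 0.00454). Pgam1 and Pgk1 each have 3 probe sets, of which 2 hold identical values, and all 3 gave the same direction. Pkm, the pyruvate kinase gene, averaged 536 in lymph node and 833 in spleen with the Xcr1Cre+ label, and 658 in lymph node and 789 in spleen with the Xcr1++ label, with differences of -0.64 (SE 0.21, adjusted p = 0.0348) and -0.26 (SE 0.21, adjusted p = 0.467). The Pkm call with the Xcr1Cre+ label was lost by the probe set that lists curated transcripts (adjusted p = 0.0902) and without any of lymph node arrays 1 and 3 or spleen arrays 2 and 3 of that label (adjusted p = 0.0997 to 0.131).

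Ldha, the lactate dehydrogenase subunit known for turning pyruvate into lactate, had the largest fall of all members under both labels. Ldha was at 439, 304 and 403 in lymph node cells labelled Xcr1Cre+, against 2341, 2081 and 1922 in spleen cells. Under the Xcr1++ label, Ldha was at 318, 396 and 297 in lymph node cells, against 2455, 1875 and 1795 in spleen cells. The highest lymph node value of Ldha was 439, and the lowest spleen value was 1795. The Ldha log2 difference was -2.48 (SE 0.19, adjusted p = 2.28e-07) with the Xcr1Cre+ label and -2.60 (SE 0.19, adjusted p = 1.58e-07) with the Xcr1++ label. Ldhb, the subunit that favours the reverse reaction, was near background. Ldhb was at 94.5, 67.7 and 68.6 in lymph node cells labelled Xcr1Cre+, against 52.2, 61.4 and 57.5 in spleen cells. Ldhb in lymph node cells labelled Xcr1++ was at 74.0, 65.3 and 61.9, against 64.1, 58.9 and 51.6 in spleen cells of that label. The Ldhb lymph node values were above the spleen values with the Xcr1Cre+ label and overlapped with the Xcr1++ label. The Ldhb log2 difference was 0.42 (SE 0.14, adjusted p = 0.037) with the Xcr1Cre+ label and 0.21 (SE 0.14, adjusted p = 0.364) with the Xcr1++ label. The Ldhb call was lost without the arrays numbered 1 (adjusted p = 0.179), without the arrays numbered 3 (adjusted p = 0.103), and without single arrays: lymph node Xcr1Cre+ array 1, spleen Xcr1Cre+ array 1 or 3, or spleen Xcr1++ array 2 (adjusted p = 0.0514 to 0.162).

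Lactate transport also split. Slc16a1 encodes MCT1, which carries lactate in either direction, and Slc16a3 encodes MCT4, known as an exporter of glycolytic cells. Slc16a1 was at 50.4, 50.7 and 53.4 in lymph node cells labelled Xcr1Cre+, against 158, 125 and 139.5 in spleen cells. The Xcr1++ arrays had Slc16a1 at 60.9, 50.2 and 39.4 in lymph node, against 182, 120.3 and 121 in spleen. Slc16a1 was at or under background on 5 of the 6 lymph node arrays and above it on all spleen arrays. The Slc16a1 log2 difference was -1.44 (SE 0.18, adjusted p = 2.69e-05) with the Xcr1Cre+ label and -1.49 (SE 0.18, adjusted p = 2.15e-05) with the Xcr1++ label. With the Xcr1Cre+ label, where all 3 lymph node arrays were at or under background, spleen was at least 2.5-fold brighter. Slc16a3 was at 151, 170.4 and 157 in lymph node cells labelled Xcr1Cre+, against 168, 128 and 152 in spleen cells. For Slc16a3 with the Xcr1++ label, the lymph node cells gave 154, 166 and 163 and the spleen cells 158, 136 and 146. Slc16a3 was above background throughout, and its tissue values overlapped. The Slc16a3 log2 difference was 0.10 (SE 0.13, adjusted p = 0.606) with the Xcr1Cre+ label and 0.14 (SE 0.13, adjusted p = 0.542) with the Xcr1++ label. Slc16a3 passed with the Xcr1++ label when arrays were weighted (log2 difference 0.25, adjusted p = 0.0245).

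Pyruvate dehydrogenase kinases inhibit pyruvate dehydrogenase, and Pdk3 rose under both labels. Pdk3 was at 907, 803 and 858 in lymph node cells labelled Xcr1Cre+, against 539.7, 535 and 546 in spleen cells. Under the Xcr1++ label, Pdk3 was at 647, 819 and 935 in lymph node cells, against 530.2, 458 and 496 in spleen cells. Each lymph node value of Pdk3 was above each spleen value. The Pdk3 log2 difference was 0.66 (SE 0.15, adjusted p = 0.00448) with the Xcr1Cre+ label and 0.68 (SE 0.15, adjusted p = 0.00378) with the Xcr1++ label. Pdk3 was not called without the arrays numbered 3 (adjusted p = 0.0942 and 0.174), nor was Aldoa (adjusted p = 0.226 and 0.0509). Pdk1 averaged 58.0 in lymph node and 80.3 in spleen with the Xcr1Cre+ label, and 59.3 in lymph node and 71.5 in spleen with the Xcr1++ label, near background, with differences of -0.47 (SE 0.13, adjusted p = 0.0119) and -0.27 (SE 0.13, adjusted p = 0.155). Without lymph node array 3 of the Xcr1Cre+ label, the Pdk1 adjusted p was 0.0533.

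Glycogen breakdown held the largest rise of all 38 members. Pygl, the liver-type glycogen phosphorylase, releases glucose-1-phosphate from glycogen. Pygl was at 1023, 1207 and 1229.6 in lymph node cells labelled Xcr1Cre+, against 41.3, 47.1 and 49.2 in spleen cells. Pygl in lymph node cells labelled Xcr1++ was at 1057, 1254 and 1428, against 61.3, 41.9 and 42.1 in spleen cells of that label. Pygl was at 1023 or more on each lymph node array, while 5 of the 6 spleen arrays were at or under background. The Pygl log2 difference was 4.65 (SE 0.18, adjusted p = 8.26e-10) with the Xcr1Cre+ label and 4.70 (SE 0.18, adjusted p = 7.62e-10) with the Xcr1++ label. With the Xcr1Cre+ label, where all 3 spleen arrays were at or under background, lymph node was at least 20.5-fold brighter. The brain-type Pygb averaged 242 in lymph node and 291 in spleen with the Xcr1Cre+ label, and 255 in lymph node and 250.0 in spleen with the Xcr1++ label, and neither of its differences passed (log2 differences -0.26 and 0.03, adjusted p = 0.218 and 0.943). Pygm was at 76.2, 102 and 95.4 in lymph node cells labelled Xcr1Cre+, against 102, 104 and 96.7 in spleen cells. The Xcr1++ arrays had Pygm at 69.4, 70.3 and 99.8 in lymph node, against 88.4, 98.2 and 97.4 in spleen. Pygm, the muscle-type enzyme, overlapped between the tissues. The Pygm log2 difference was -0.15 (SE 0.15, adjusted p = 0.498) with the Xcr1Cre+ label and -0.27 (SE 0.15, adjusted p = 0.254) with the Xcr1++ label. With the Xcr1++ label, Pygm was called lower when arrays were weighted (-0.42, adjusted p = 0.00103) and without lymph node array 3 (-0.44, adjusted p = 0.0311).

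Gaa, the lysosomal acid alpha-glucosidase, was the other breakdown gene that rose. Gaa was at 398, 612 and 752 in lymph node cells labelled Xcr1Cre+, against 362, 379 and 360.2 in spleen cells. For Gaa with the Xcr1++ label, the lymph node cells gave 661, 769 and 655 and the spleen cells 318, 343 and 373. Gaa in lymph node was above spleen under both labels, with the smallest gap at lymph node Xcr1Cre+ array 1. The Gaa log2 difference was 0.63 (SE 0.20, adjusted p = 0.0274) with the Xcr1Cre+ label and 1.01 (SE 0.20, adjusted p = 0.00133) with the Xcr1++ label. With the Xcr1Cre+ label the Gaa call was lost without any 1 of lymph node arrays 2 and 3 or spleen arrays 1, 2 and 3 (adjusted p = 0.0601 to 0.132), and without the arrays numbered 3 (adjusted p = 0.358). Phosphorylase kinase switches phosphorylase on, and its subunit genes did not move together. The regulatory subunit gene Phka2 averaged 409.9 in lymph node and 806 in spleen with the Xcr1Cre+ label, and 459.8 in lymph node and 722 in spleen with the Xcr1++ label, with differences of -0.98 (SE 0.16, adjusted p = 0.000308) and -0.65 (SE 0.16, adjusted p = 0.00677). Phkb averaged 545 in lymph node and 419 in spleen with the Xcr1Cre+ label, and 562 in lymph node and 402 in spleen with the Xcr1++ label and had differences of 0.38 (SE 0.22, adjusted p = 0.243) and 0.49 (SE 0.22, adjusted p = 0.144). Phkg2, the catalytic subunit gene, averaged 567 in lymph node and 502 in spleen with the Xcr1Cre+ label, and 637 in lymph node and 467 in spleen with the Xcr1++ label and had differences of 0.18 (SE 0.23, adjusted p = 0.61) and 0.45 (SE 0.23, adjusted p = 0.189). With the replicate block, Phkb was called higher under both labels (adjusted p = 0.0349 and 0.00974) and Phkg2 with the Xcr1++ label (adjusted p = 0.0331). Both were also called higher under both labels with array weights (adjusted p = 0.0439 and 9.5e-05 for Phkb, 0.0272 and 0.00152 for Phkg2) and without the arrays numbered 1 (0.0249 and 0.000702 for Phkb, 0.00388 and 0.00301 for Phkg2). Without lymph node Xcr1Cre+ array 1 alone, Phkg2 was called with the Xcr1Cre+ label (0.50, adjusted p = 0.0248) and with the Xcr1++ label (adjusted p = 0.0243), and without lymph node Xcr1++ array 1 Phkb was called with the Xcr1++ label (0.73, adjusted p = 0.0146).

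None of the 3 build-up genes passed the test under either label. Gys1, the glycogen synthase expressed outside the liver, averaged 356 in lymph node and 267 in spleen with the Xcr1Cre+ label, and 432 in lymph node and 246 in spleen with the Xcr1++ label. Its differences were 0.42 (SE 0.30, adjusted p = 0.344) and 0.81 (SE 0.30, adjusted p = 0.0628). With the replicate block, Gys1 was called higher under both labels (adjusted p = 0.0201 and 0.000171), and in the lymph node groups array 1 lay far under the other arrays, at 214 against 472 and 445 with the Xcr1Cre+ label and at 307 against 499.7 and 528 with the Xcr1++ label. Ugp2, which makes the UDP-glucose that glycogen synthase uses, averaged 700.2 in lymph node and 604 in spleen with the Xcr1Cre+ label, and 688 in lymph node and 594 in spleen with the Xcr1++ label, with differences of 0.21 (SE 0.18, adjusted p = 0.425) and 0.21 (SE 0.18, adjusted p = 0.507). The branching enzyme gene Gbe1 was near background at 61.9 in lymph node and 63.7 in spleen with the Xcr1Cre+ label, and 63.5 in lymph node and 53.5 in spleen with the Xcr1++ label, with differences of -0.04 (SE 0.19, adjusted p = 0.896) and 0.25 (SE 0.19, adjusted p = 0.436). With array weights, all 3 build-up genes were called higher with the Xcr1++ label (adjusted p = 4.81e-05 for Gys1, 0.00842 for Gbe1 and 0.0212 for Ugp2) and Gys1 with the Xcr1Cre+ label (0.0132). Without the arrays numbered 1, Gys1 was called under both labels (0.000376 and 2.96e-05) and Ugp2 with the Xcr1++ label (0.0334). Without lymph node Xcr1Cre+ array 1 alone, Gys1 was called under both labels (0.037 and 0.0164), and without lymph node Xcr1++ array 1 with the Xcr1++ label (1.06, adjusted p = 0.021).

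Of the 3 phosphoglucomutase genes, Pgm2l1 fell. Its product is known for making glucose-1,6-bisphosphate, a cofactor of the other phosphoglucomutases. Pgm2l1 was at 36.4, 40.4 and 39.9 in lymph node cells labelled Xcr1Cre+, against 102, 123 and 120.2 in spleen cells. Under the Xcr1++ label, Pgm2l1 was at 52.2, 53.1 and 45.5 in lymph node cells, against 86.8, 90.4 and 95.1 in spleen cells. All 6 lymph node values of Pgm2l1 were at or under background and all spleen values above it. The Pgm2l1 log2 difference was -1.56 (SE 0.11, adjusted p = 9.5e-08) with the Xcr1Cre+ label and -0.86 (SE 0.11, adjusted p = 2.73e-05) with the Xcr1++ label. As bounds, spleen was at least 2.05-fold brighter with the Xcr1Cre+ label and at least 1.62-fold brighter with the Xcr1++ label. Pgm1 averaged 222 in lymph node and 315 in spleen with the Xcr1Cre+ label, and 220.4 in lymph node and 271 in spleen with the Xcr1++ label, with differences of -0.51 (SE 0.18, adjusted p = 0.0523) and -0.30 (SE 0.18, adjusted p = 0.302). The replicate block called Pgm1 lower with the Xcr1Cre+ label (adjusted p = 0.0128), as did array weights (0.00505), leaving out the arrays numbered 1 (0.0166) and leaving out lymph node Xcr1++ array 1 or 3 or spleen Xcr1Cre+ array 1 (0.0284 to 0.038). Pgm2 averaged 395 in lymph node and 427 in spleen with the Xcr1Cre+ label, and 377 in lymph node and 401 in spleen with the Xcr1++ label, with differences of -0.11 (SE 0.20, adjusted p = 0.725) and -0.09 (SE 0.20, adjusted p = 0.849).

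Hif1a encodes the oxygen-regulated subunit of HIF1, whose protein is controlled mainly by degradation. Hif1a was at 681, 939 and 967 in lymph node cells labelled Xcr1Cre+, against 1016, 1315 and 1381 in spleen cells. Hif1a in lymph node cells labelled Xcr1++ was at 692, 1009.8 and 1019, against 1221, 1589.8 and 1386 in spleen cells of that label. Lymph node values of Hif1a were under spleen values within each label. The Hif1a log2 difference was -0.53 (SE 0.20, adjusted p = 0.0694) with the Xcr1Cre+ label and -0.64 (SE 0.20, adjusted p = 0.0306) with the Xcr1++ label. The replicate block called it lower under both labels (adjusted p = 0.000375 and 7e-05), and with the Xcr1Cre+ label Hif1a was also called with array weights (0.00286), without the arrays numbered 1 (0.00133), and without lymph node Xcr1++ array 1 or spleen Xcr1Cre+ array 1 (0.0388 and 0.0369). Without the block, the call with the Xcr1++ label was lost without lymph node array 1 (adjusted p = 0.125), spleen array 2 (adjusted p = 0.127) or spleen array 3 (adjusted p = 0.0789) of that label.

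Of 79 other genes of these pathways, 70 were measured. With the Xcr1Cre+ label 10 rose and 19 fell, and with the Xcr1++ label 10 rose and 11 fell, beside the same shares of all genes given above. With the replicate block, 15 rose and 25 fell with the Xcr1Cre+ label, and 13 rose and 22 fell with the Xcr1++ label, beside the blocked shares given above. Both comparisons called 8 of them higher and 10 lower, a count that was not made over all genes. Among 11 other glycolytic genes, the muscle enolase Eno3 had log2 differences of 3.11 (SE 0.19, adjusted p = 3.59e-08) and 2.94 (SE 0.19, adjusted p = 5.67e-08). Eno3 was at 2630.3, 2756 and 2595 in lymph node cells labelled Xcr1Cre+, against 421, 246 and 285 in spleen cells. The Xcr1++ arrays had Eno3 at 2438, 2657 and 3009 in lymph node, against 389.6, 309 and 356 in spleen. Eno3 thus followed Eno2 in direction, with no overlap between the tissues. The ADP-dependent glucokinase gene Adpgk fell (-1.23 and -1.30), as did Bpgm, the bisphosphoglycerate mutase gene (-0.62 and -0.56). Among 13 other lactate and pyruvate genes, the transporter gene Slc16a6 fell (log2 differences -2.98 and -3.49, adjusted p = 1.28e-07 and 3.09e-08), Pdk2 rose (0.89 and 0.74) and Pdha1, a pyruvate dehydrogenase subunit gene, fell (-0.79 and -0.63).

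The pentose phosphate pathway branches off at glucose-6-phosphate and returns carbon to glycolysis through transaldolase and transketolase. Of its 6 measured genes, 4 fell with the Xcr1Cre+ label and 2 with the Xcr1++ label, and none rose. Of all genes, 13.1% rose and 15.2% fell with the Xcr1Cre+ label, and 12.9% rose and 13.2% fell with the Xcr1++ label. With the replicate block, 4 fell and 1, the 6-phosphogluconolactonase gene Pgls, rose under each label, beside the blocked shares of all genes given above. The transaldolase gene Taldo1 had differences of -2.23 (SE 0.13, adjusted p = 2.62e-08) and -2.08 (SE 0.13, adjusted p = 4.6e-08), and the transketolase gene Tkt -1.37 (SE 0.15, adjusted p = 9.05e-06) and -1.21 (SE 0.15, adjusted p = 3.13e-05). Taldo1 was at 772, 714 and 871 in lymph node cells labelled Xcr1Cre+, against 3572, 3781 and 3643 in spleen cells. For Taldo1 with the Xcr1++ label, the lymph node cells gave 838, 779 and 762 and the spleen cells 3049, 3479 and 3572. The highest lymph node value of Taldo1 was 871, and the lowest spleen value was 3049. With the Xcr1Cre+ label, Pgd and Rpia also fell (-0.62 and -0.48).

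Of 18 genes of the HIF pathway and HIF targets outside glycolysis, 5 rose and 2 fell with the Xcr1Cre+ label, where 13.1% of all genes rose and 15.2% fell. With the Xcr1++ label 5 of the 18 rose and 1 fell, where 12.9% of all genes rose and 13.2% fell. The replicate block gave 7 higher and 5 lower with the Xcr1Cre+ label, and 6 higher and 4 lower with the Xcr1++ label, beside the blocked shares of all genes given above. Adm, the gene of the vasoactive peptide adrenomedullin, had the largest difference of this list (log2 differences 3.97 and 4.42, adjusted p = 1.03e-07 and 4e-08). Adm was at 583, 855 and 1105 in lymph node cells labelled Xcr1Cre+, against 56.3, 50.3 and 51.0 in spleen cells. Under the Xcr1++ label, Adm was at 618, 1455 and 956 in lymph node cells, against 46.2, 39.9 and 47.1 in spleen cells. In spleen, Adm was at or under background on 5 of 6 arrays, and with the Xcr1++ label lymph node was at least 17.0-fold brighter. Ndrg1 rose (log2 differences 2.46 and 2.47, adjusted p = 1.08e-07 and 1.08e-07), and so did Vhl, whose product marks HIF subunits for degradation (log2 differences 1.78 and 1.87, adjusted p = 2.27e-07 and 1.55e-07). Ero1a, an oxidoreductase gene of the endoplasmic reticulum, fell with the Xcr1++ label (-0.77). Of 10 genes of glucose sensing, Myc and mTOR, the mTOR complex gene Rptor rose (log2 differences 1.49 and 1.42, adjusted p = 2.21e-05 and 3.61e-05). Its upstream GTPase gene Rheb fell (log2 differences -1.16 and -1.27, adjusted p = 5.55e-05 and 2.67e-05), as did the transcription factor gene Myc (log2 differences -1.19 and -1.49, adjusted p = 0.00413 and 0.000794), and Arrdc4 fell with the Xcr1Cre+ label (-0.66). Of 12 other glycogen genes, G6pc3, a glucose-6-phosphatase gene, fell (-1.01 and -0.78), and so did the glucose-6-phosphate transporter gene Slc37a4 (-0.56 and -0.71). Ppp1r3f, a glycogen-targeting subunit gene of protein phosphatase 1, rose (0.61 and 0.75), and Phka1, another phosphorylase kinase subunit gene, rose with the Xcr1++ label (0.75).

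The second comparison set arrays labelled Xcr1Cre+ against arrays labelled Xcr1++, to see whether the label intended for Cd40 deletion went with a change in these genes. No member passed in lymph node, in spleen, averaged over the tissues, or in the difference between the tissues, and 0% of all genes passed in each of these comparisons in either direction (limma). At an unadjusted p under 0.05, 402 of all genes passed in lymph node, 357 in spleen, 383 in the average and 326 in the difference. The replicate block also called 0 genes, with 1360, 886, 1065 and 1145 at an unadjusted p under 0.05. With array weights, which give less weight to arrays that deviate more, 1 gene rose and 1 fell in lymph node, 26 rose and 25 fell in spleen, and 3 were lower in the difference. Of the members, 1 reached that unadjusted level in lymph node, 2 in spleen, 0 in the average and 2 in the difference. Member differences lay between -0.37 and 0.20 in lymph node and between -0.26 and 0.34 in spleen on the log2 scale. Without the arrays numbered 3, no member was called in any of these comparisons.

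**Figure D3:**
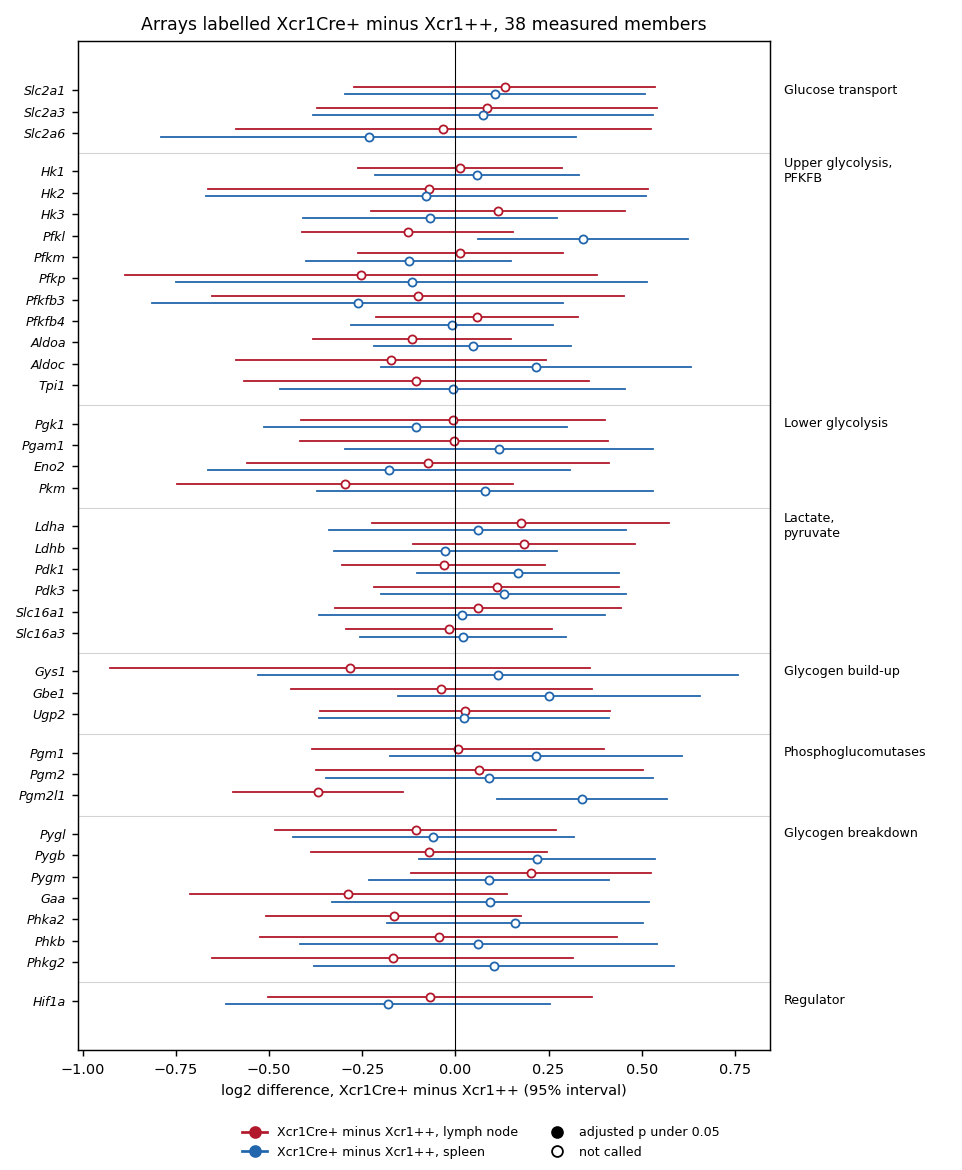
Log2 difference of arrays labelled Xcr1Cre+ minus arrays labelled Xcr1++ for the 38 measured members, ordered by role, with 95% intervals; red is lymph node and blue is spleen. No point is filled, since no member passed an adjusted p under 0.05, and Pgm2l1 lies left of 0 in lymph node (-0.37) and right of it in spleen (0.34).

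In lymph node the median log2 difference was -0.01 over the glycolysis and lactate members and -0.07 over the glycogen members, with 10 of 24 and 4 of 13 above 0. In spleen the medians were 0.02 and 0.10, with 13 of 24 and 12 of 13 above 0. Over all genes the median was -0.015 in lymph node and -0.011 in spleen, and the share above 0 was not counted. Genes measured on the same arrays are not independent. Single arrays moved the member medians. The glycogen median in lymph node was -0.22 without Xcr1++ array 1, -0.14 without Xcr1Cre+ array 2 or 3, -0.03 without Xcr1++ array 3 and -0.02 without Xcr1Cre+ array 1 of that tissue, and in spleen it was 0.20 without Xcr1Cre+ array 1. Leaving out 1 array put the glycolysis and lactate median between -0.06 and 0.03 in lymph node and between 0.01 and 0.05 in spleen. Pgm2l1 had the smallest unadjusted p of the members. Its difference was -0.37 in lymph node (SE 0.11, 95% interval -0.60 to -0.14, adjusted p = 1) and 0.34 in spleen (SE 0.11, 95% interval 0.11 to 0.57, adjusted p = 1). In lymph node both label groups were at or under background. With array weights, Pgm2l1 was called in spleen (0.40, adjusted p = 0.0363) and in the difference between the tissues (-0.79, adjusted p = 0.0262). Pfkl in spleen was at 153, 136 and 111 with the Xcr1Cre+ label, against 94.8, 104 and 116 with the Xcr1++ label. Those values overlapped, and the Pfkl difference was 0.34 (SE 0.13, 95% interval 0.06 to 0.62, adjusted p = 1). For Pfkfb3 and Pygl, the 95% intervals of the genotype difference were -0.65 to 0.45 and -0.48 to 0.27 in lymph node.

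The array number went with the level of many members. In all 4 groups, array 1 was above its group mean for 5 members (Slc2a3, Hk1, Pgk1, Ugp2 and Pgm2) and below it for 12 (Pfkp, Pfkfb3, Pfkfb4, Tpi1, Pgam1, Pkm, Gys1, Gaa, Phka2, Phkb, Phkg2 and Hif1a). Array 2 was above in all 4 groups for 9 members and below for 2, and array 3 above for 8 and below for 2. The deviation of array 1 from the group mean was -0.61 to -0.43 for Pfkp, -0.47 to -0.32 for Pfkfb3 and -0.73 to -0.29 for Gys1 on the log2 scale. What the numbers stand for is not given by the labels.

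**Figure D4:**
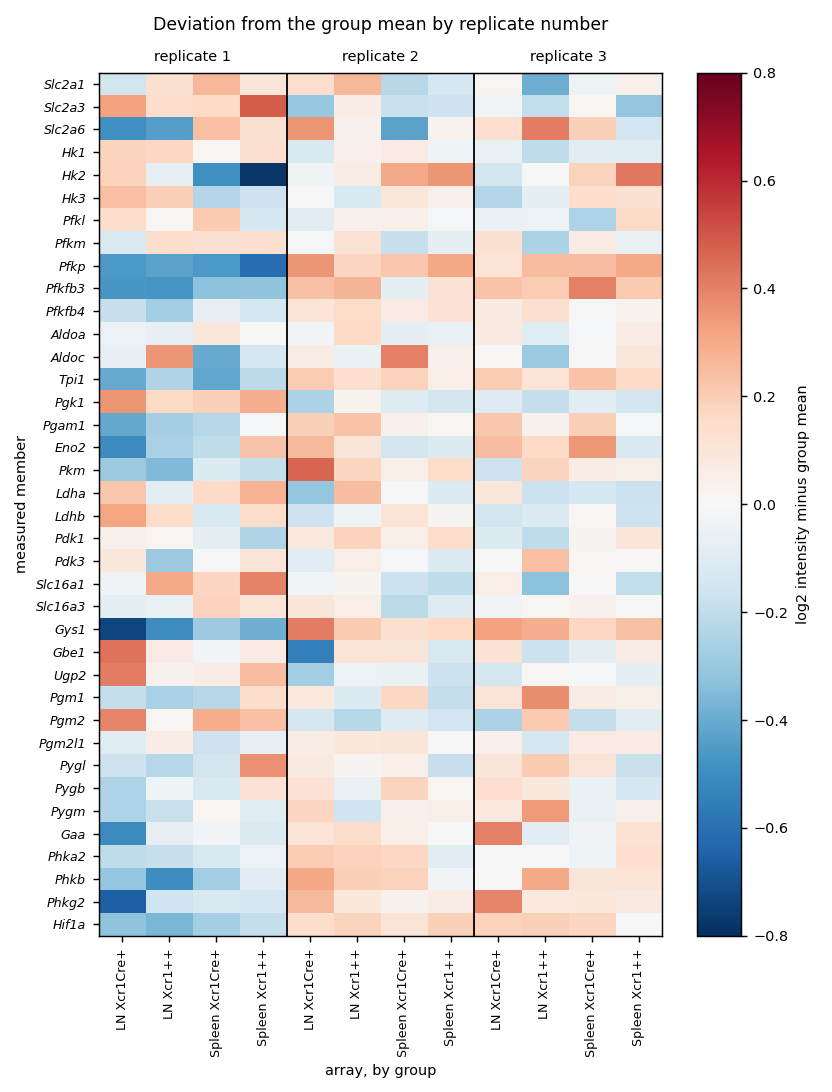
Deviation of each array's log2 intensity from its group mean for the 38 measured members (rows), with arrays grouped by number and, within a number, by group; red is above and blue below the mean, on a scale of -0.8 to 0.8. Array 1 is blue in all 4 groups for 12 members, among them Pfkp, Pfkfb3 and Gys1, and red in all 4 for 5.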

How the data were processed

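The deposited intensities, 1 for each probe set on each array, had been summarised by the authors: the submitters' processing notes name RMA and Affymetrix Expression Console, without versions. Per the labels, biotinylated cDNA was prepared from total RNA with the Affymetrix WT Pico kit. Probe sets were named by the platform annotation: of 28853 probe sets, 23410 were listed, 21789 of them with a single symbol and 1621 with several, and 21698 single symbols were matched to RefSeq (GRCm38.p6). The build the authors used is not given in the sources used here, so no probe coordinates are printed. The brightest probe set was kept for each of 999 genes with several, which left 19938 genes.

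Intensities were turned to log2 and fitted in limma 3.58.1 (R 4.3.3) with 4 group means over 12 arrays, eBayes with a mean trend, two-sided tests and Benjamini-Hochberg adjustment over all genes within each of 6 comparisons; a gene passed, or was called, at an adjusted p under 0.05. All adjusted p here are from limma. Group means of intensity are geometric. "At least" folds set the bright group's mean against the background of 56.0, used where every array of the dim group was at or under it. The script was tested on simulated data. The members and lists were chosen with earlier results of these data known. Members with values on every array are those with the largest called differences, the smallest genotype p, and Hif1a, Slc16a1 and Slc16a3; the other members are given by group means, and of the other pathway genes up to 4 per list are named.

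The main fit has no block, and array numbers from the labels pair the samples only in the replicate block. Deviations from the group means over all genes correlated at 0.573 to 0.729 among arrays numbered 1. They correlated at 0.309 to 0.449 among arrays numbered 2 and at 0.293 to 0.466 among those numbered 3. Between number 2 and number 3, r was 0.177 to 0.557, and between number 1 and the rest -0.633 to -0.319. Number 1 thus stands apart, and this check does not tell numbers 2 and 3 apart. The labels do not say what a number shares. Alternatives were the replicate block, quantile normalization, only genes above the median level, the mean of a gene's probe sets, array weights, no mean trend, and leaving out arrays. Leaving out all arrays numbered 3 and keeping the probe set that lists a curated transcript were added after seeing the data.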

Additional observations from a re-analysis of the deposited data

Results flagged for a closer look

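For 2 of 38 members, the difference between arrays labelled Xcr1Cre+ and Xcr1++ ran in opposite directions in the tissues for all 3 array numbers. The share of all genes with this pattern was not counted, so the count says nothing particular about the members. The pattern also rests on matching arrays by number, and the correlation check did not tell numbers 2 and 3 apart. Pgm2l1 was lower on the array labelled Xcr1Cre+ in lymph node, by -0.523, -0.394 and -0.189 on the log2 scale for numbers 1, 2 and 3, and higher in spleen, by 0.237, 0.444 and 0.338. The lymph node difference minus the spleen difference was -0.708 (SE 0.149, limma adjusted p = 1, or 0.0262 with array weights), and all lymph node values were at or under background. Number 3, for which Cd40 went against the labels, kept the direction of the other numbers.

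Gys1, the glycogen synthase gene, was lower on the array labelled Xcr1Cre+ in lymph node, by -0.518, -0.082 and -0.247, and higher in spleen, by 0.211, 0.088 and 0.046. The lymph node difference minus the spleen difference was -0.397 (SE 0.423, limma adjusted p = 1), and the array numbered 1 gave the largest gap in both tissues.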

How the results depend on the processing

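Under the alternatives run, no call among the members with values on every array changed sign. Blocking on the replicate number (replicate block) left all 4 counts of called members in the tissue comparisons within 1.5 times (10 higher and 18 lower with the Xcr1Cre+ label, 10 higher and 14 lower with the Xcr1++ label) and called no member between the genotype labels; the calls it changed are given with their genes. Without all arrays numbered 3, 4 members were higher with the Xcr1Cre+ label and 7 lower with the Xcr1++ label; beyond the smaller number of arrays, the cause was not tested. With the Xcr1++ label, 14 members were higher with array weights, where 4937 of 19938 genes were higher, against 2581 in the main fit. Without all arrays numbered 1, 11 members were higher with that label, where 17.7% of all genes were. Array weights also called 1 member higher in spleen between the genotype labels and 1 member lower in the difference between tissues, Pgm2l1 each time. Fitting genes above the median level only, which leaves out the dim members, moved the glycogen median with the Xcr1Cre+ label to 0.176 and the glycolysis median with the Xcr1++ label to -0.553. Leaving out 1 array at a time gave 6 to 9 higher and 12 to 17 lower members with the Xcr1Cre+ label and 7 to 9 higher and 12 to 13 lower with the Xcr1++ label, and 0 in every genotype comparison. Of all 19938 genes, 2007 to 2899 were higher and 2526 to 3202 lower in these fits with the Xcr1Cre+ label. With the Xcr1++ label, 2094 to 2781 of all genes were higher and 2198 to 2744 lower. Signals near background limit Pfkm, Pfkfb4, Ldhb, Pdk1, Gbe1, Slc16a1 and Pgm2l1, and 33 of 38 members had all 4 group means above it.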
